A study of Mus musculus with 16 samples.

Results

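The genes described here are 8 genes of the Hippo-YAP pathway, measured in P19 cells, a mouse embryonal carcinoma line that grows as undifferentiated stem-like cells and can be turned into neurons or muscle. They are Ctgf (newer name Ccn2), Cyr61 (newer name Ccn1), Ankrd1 and Amotl2, which are textbook target genes of the coactivator YAP; Yap1, Tead1 and Tead2, which encode YAP and its DNA-binding partners; and Lats2, a kinase that acts on YAP. The probes of each gene were found by the gene name in the array files, newer names included, and checked by the transcript identifier of the probe. All 8 had a probe among the 27442 named genes of the array, and 7 of the 8 were bright enough to be among the 18338 genes tested. Ctgf was chosen by a measured value, its positive interaction between let-7a and the knockdown of Sfpq. Its values in all contrasts are therefore a description with no test, and the other members, picked because they share its pathway, were tested.

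The cells fell into 4 conditions with 4 arrays each. They are named here control, let-7a, siSfpq and let-7a + siSfpq, where the labels give control, let-7a overexpression, SFPQ knockdown, and the last of these combined with let-7a. Let-7a stands for transfection of a synthetic copy (mimic) of the microRNA let-7a, siSfpq for siRNAs against Sfpq (by the study's methods a pool of siRNAs), an RNA-binding protein of nuclear paraspeckles, and the fourth condition for both together; what the control cells of the arrays received is not given in the sources used here. The design asks whether the response of the transcriptome to let-7a depends on Sfpq. P19 is a single cell line, and the labels do not say that the replicates of a condition were separate cultures, so the p-values below measure the spread between these samples, which may be technical.

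In the Hippo pathway, a cascade of kinases that ends in LATS1 and LATS2 phosphorylates YAP and its relative TAZ and keeps them out of the nucleus. When the cascade is quiet, YAP enters the nucleus, binds TEAD proteins and raises the transcription of genes such as Ctgf and Cyr61, which encode secreted matrix proteins of the CCN family. LATS2 and AMOTL2 restrain YAP and are at the same time encoded by YAP target genes, so the pathway contains its own feedback. In embryonic stem cells and embryonal carcinoma cells TEAD factors also act at genes of the undifferentiated state.

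The sequence that was added to the cells and the sequences that TEAD factors read are shown first, since one was varied in the experiment and the others are what ties target genes to YAP. The mature let-7a of the RefSeq annotation (mmu-let-7a-5p, 22 bases, GRCm38.p6, chr13:48538239-48538260, minus strand) is printed with its seed, bases 2 to 8, in capitals; the seed is the stretch with which a microRNA pairs with its targets.
let-7a-5p: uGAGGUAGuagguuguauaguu
The letters CATTCC, or GGAATG when read on the other strand, are the core of the motif bound by TEAD factors. In the 250 bases before the transcription start in RefSeq (GRCm38.p6), 4 of the 6 members with a promoter in the table held it; Ctgf and Tead1 had no entry and were not searched. These were Cyr61, Ankrd1 (at 2 places), Amotl2 and Yap1, whereas Tead2 and Lats2 did not hold these letters in this window. Over all genes of the table, 4153 of 32851 promoters of this length, or 12.6%, held the letters on either strand. Each stretch is given 5′ to 3′ along the gene's strand with the motif in capitals, to show how the matches in the members compare; a match of letters is a description and not a measured binding site.
Cyr61 (chr3:145650071-145650100, minus strand, motif 103 to 98 bases before the start): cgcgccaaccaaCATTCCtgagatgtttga
Ankrd1 (chr19:36120037-36120066, minus strand, 210 to 205 bases before the start): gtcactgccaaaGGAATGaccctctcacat
Ankrd1 (chr19:36119950-36119979, minus strand, 123 to 118 bases before the start): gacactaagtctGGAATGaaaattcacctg
Amotl2 (chr9:102717727-102717756, plus strand, 65 to 60 bases before the start): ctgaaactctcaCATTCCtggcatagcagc
Yap1 (chr9:8004720-8004749, minus strand, 141 to 136 bases before the start): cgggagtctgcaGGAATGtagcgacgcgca

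Before the results, some facts about the samples bear on all of them. Arrays 1 and 2 of each condition differed about as little as repeat spots of a single probe do, with a robust SD of the differences of 0.0758 to 0.0997 on the log2 scale (highest for let-7a + siSfpq) against 0.0879 for repeat spots, while every other pair of arrays of a condition had 0.157 to 0.533. They were averaged and counted as 1 sample, named replicate 1-2, which left 3 samples in each condition (replicates 1-2, 3 and 4). In addition, replicate 3 stood apart. Sfpq itself had a log2 level of 12.07, 11.98 and 11.99 in the control (in the order of replicates 1-2, 3 and 4, kept throughout), 12.04, 11.998 and 11.90 with let-7a. The siSfpq samples had 10.56, 11.47 and 10.61, and those of let-7a + siSfpq 11.31, 11.50 and 11.40. Sfpq was lower than in every control sample in each of the 3 samples of siSfpq (log2 difference −1.13, SE 0.19, limma adjusted p = 0.00745), least in replicate 3, and the value was −1.43 without that replicate. Under let-7a + siSfpq Sfpq differed from control by −0.61 on the log2 scale, which did not pass the test (adjusted p = 0.184), although each of its samples lay below each control sample, and by −0.67 without replicate 3 (adjusted p = 0.00107). Sfpq was higher with both than with siSfpq alone, by 0.53 (adjusted p = 0.1004; 0.0384 with the replicate number as a block) and by 0.77 without replicate 3 (adjusted p = 0.000135). The knockdown was thus smaller in the combination in the samples of replicates 1-2 and 4, and its part in the interactions given below was not tested. Values without replicate 3 rest on 2 samples per condition. For the members they are also given where they change a call, and for the gene lists the counts without that replicate are given. Leaving out replicate 1-2 or replicate 4 in its place left between 0 and 3 genes of the whole table called in any of the comparisons, and 0 among the members, Sfpq and the genes of the lists below, so none of their calls holds when either of them is left out.

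Of the cell type markers, those of embryonal carcinoma cells were present in all samples: 7 of 8 were tested (Zfp42 was too dim), and their summed log2 level was 15.37 to 15.71 in the control, 14.91 to 15.46 with let-7a, 15.80 to 15.85 with siSfpq and 15.44 to 15.61 with both. With let-7a 2 of them fell (Nanog and Utf1), and with siSfpq 2 rose (Fgf4 and Utf1) and 1 fell (Sox2). For these and the marker counts that follow, let-7a left 4.89% of all genes called higher and 2.01% called lower, and siSfpq 6.33% and 7.32%. Neuron markers moved with the conditions as well. All 6 were tested, 5 rose with let-7a and 6 fell with siSfpq, Neurod1 among both; it was not well above background on any array of siSfpq and passed the filter through the conditions with let-7a, in which it is high, so its calls carry no weight. The summed level was 14.91 to 14.97 in the control, 15.25 to 15.45 with let-7a, 13.39 to 14.49 with siSfpq and 14.28 to 14.66 with both. The 6 markers of fibroblasts and mesenchyme, in which Ctgf and Cyr61 are abundant, summed to 12.75 to 13.02 in the control, 12.85 to 13.11 with let-7a, 13.41 to 14.12 with siSfpq and 13.73 to 13.96 with both; 1 of them rose with let-7a (Col1a2) and 1 with siSfpq (Dcn), while 4 of the 6 had a mean below control with siSfpq, with a median difference of −0.38. Markers of extraembryonic endoderm (4 of 6 tested, Sox17 and Afp too dim) summed to 8.73 to 8.93 in the control, 9.10 to 9.39 with let-7a, 8.53 to 8.84 with siSfpq and 9.17 to 9.45 with both, with none called. Those of heart and smooth muscle (4 of 6, Tnnt2 and Myh11 too dim) summed to 8.80 to 9.50, 9.05 to 9.81, 9.59 to 9.68 and 9.28 to 9.58 in the same order, and 1 (Myl2) was called higher with siSfpq, but passed the filter only through the conditions with siSfpq, so that this is not a result. Those of endothelium (2 of 4, Cdh5 and Tie1 too dim) summed to 9.01 to 9.13, 9.42 to 9.59, 9.24 to 9.45 and 9.30 to 9.56, and 1 (Kdr) rose with let-7a. With the replicate block the fibroblast list had 3 genes higher with let-7a, and 2 higher and 2 lower with siSfpq, and without replicate 3 it had 4 higher with let-7a, and 2 higher and 3 lower with siSfpq. The embryonal carcinoma list had 3 lower with let-7a under the block, and 4 lower with let-7a and 3 higher with siSfpq without replicate 3. The endoderm list had 1 higher with let-7a under either setting. With siSfpq it had 1 higher and 1 lower under the block and 2 higher and 1 lower without replicate 3. Among its genes Gata4 passed the filter only through siSfpq, and Sox7 only through the conditions with siSfpq. A higher call of either with siSfpq is therefore not a result. The muscle list had 2 higher and 1 lower with siSfpq under either setting, where a call of Myl2 is again not a result. It also had 1 higher with let-7a without replicate 3, and the endothelium list 1 higher with siSfpq under the block. The neuron counts were those given above. Of all genes, 21.8% (let-7a) and 37.8% (siSfpq) were called under the block, and 29.7% and 48.5% without replicate 3. In the fit without the block, 5 neuron markers were lower with both than with let-7a alone, and 2 of embryonal carcinoma and 1 of fibroblasts higher. Of all genes 2.16% were lower and 0.96% higher there. Against siSfpq alone 5 neuron and 2 fibroblast markers were higher and 1 of embryonal carcinoma lower, beside 6.17% and 4.12% of all genes. Any call of Neurod1 carries no weight here either. The part of any of these in the results was not tested, and in bulk RNA fewer cells of a type cannot be told apart from less RNA per cell.

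Ctgf, which encodes connective tissue growth factor, was lower with let-7a in 2 of the 3 samples and closer to control in every other condition. Its single probe (mm9, chromosome 10, 24318281 to 24318340) gave log2 levels of 9.62, 9.70 and 9.73 in the control and 8.18, 9.71 and 8.18 with let-7a. With siSfpq the levels were 9.32, 9.47 and 9.27, and with let-7a + siSfpq 9.42, 9.48 and 9.48. Thus the 2 samples of let-7a from replicates 1-2 and 4 were the lowest of all 12, whereas the let-7a sample of replicate 3 lay among the control samples. The samples of siSfpq and of let-7a + siSfpq all lay below the lowest control sample.

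The mean of Ctgf was 9.68 ± 0.06 (SD, n = 3) in the control, 8.69 ± 0.88 with let-7a, 9.35 ± 0.11 with siSfpq and 9.46 ± 0.04 with both. Relative to control, let-7a differed by −0.99 (SE 0.32), siSfpq by −0.33 and let-7a + siSfpq by −0.23. Without replicate 3 the difference for let-7a was −1.47 (SE 0.07, 2 samples per condition), which is a level of 0.361 times control. Adding siSfpq to let-7a raised the mean by 0.77 (SE 0.32) over let-7a alone, and by 1.25 (SE 0.07) without replicate 3.

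The value by which Ctgf was chosen is the interaction, the effect of let-7a in the presence of siSfpq minus its effect in its absence. It was 1.10 (SE 0.45) on the log2 scale, with 1.53 in replicate 1-2, 0.00089 in replicate 3 and 1.76 in replicate 4. Without replicate 3 it was 1.62 (SE 0.10), without replicate 1-2 it was 0.90 and without replicate 4 it was 0.77. Across the whole table, 0 of 18338 genes (0%) passed the adjusted test for the interaction in limma, and 1159 had an unadjusted p below 0.05. Without replicate 3 it was 4086 of 18733 genes (21.8%), 2226 of them positive and 1860 negative. With the replicate block 0 were positive and 4 negative, and with all 16 arrays as separate samples 91 and 90.

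**Figure D1:**
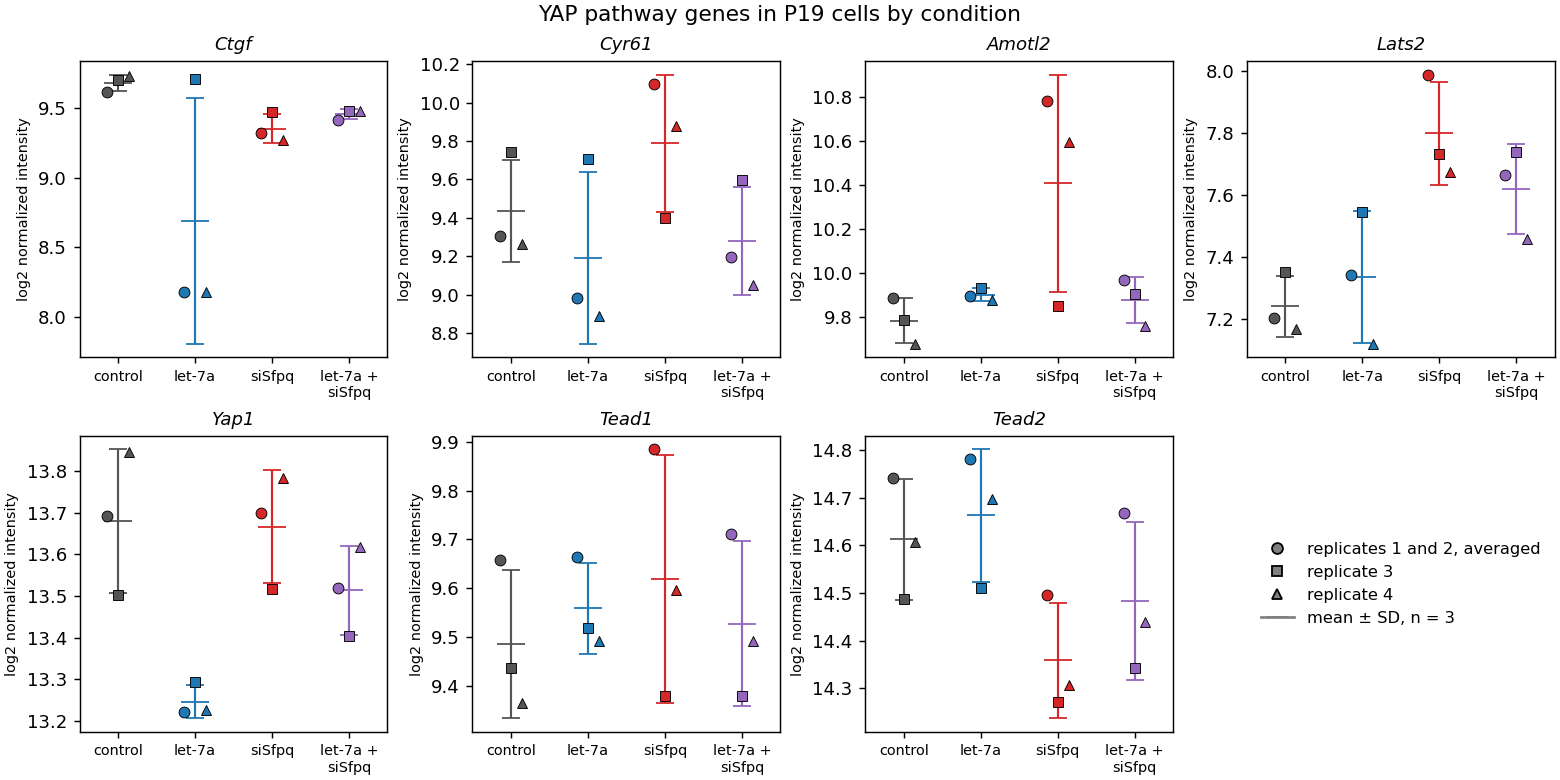
Log2 level (quantile normalized) of the 7 members that were tested, a panel each, in the 4 conditions. Each symbol is a sample, with its shape showing the replicate, and bars give the mean ± SD of 3 samples. In Ctgf the let-7a samples of replicates 1-2 and 4 lie at 8.18, below the 10 other samples, while that of replicate 3 lies at 9.71 beside the control.

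Cyr61, the other CCN target gene, was like Ctgf with let-7a, lowest in replicates 1-2 and 4, and unlike it with siSfpq, where it was highest in these replicates. Its probe lies on chromosome 3 (mm9, 145310187 to 145310246) and gave 9.30, 9.74 and 9.26 in the control and 8.98, 9.70 and 8.89 with let-7a. With siSfpq it gave 10.10, 9.40 and 9.88, and with let-7a + siSfpq 9.19, 9.60 and 9.05. In replicates 1-2 and 4 the order of the conditions was the same, with siSfpq highest and let-7a lowest, but in replicate 3 siSfpq was the lowest sample and control the highest.

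None of the differences of Cyr61 passed the test with all samples. The log2 difference from control was −0.24 (SE 0.25) for let-7a (limma adjusted p = 0.673), 0.35 (SE 0.25) for siSfpq (adjusted p = 0.377) and −0.15 for both (adjusted p = 0.925). By replicate (1-2, 3 and 4) the difference was −0.32, −0.04 and −0.37 for let-7a, and 0.79, −0.34 and 0.61 for siSfpq. Without replicate 3 it was −0.35 for let-7a (limma adjusted p = 0.0285) and 0.69 for siSfpq (adjusted p = 0.000714). In that set of samples Cyr61 was also 0.85 lower on the log2 scale with let-7a + siSfpq than with siSfpq alone (adjusted p = 0.000319; adjusted p = 0.209 with all samples). The interaction of Cyr61 was −0.26 (SE 0.35), of the opposite sign to that of Ctgf. Its values by replicate were −0.58, 0.23 and −0.45.

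Amotl2, which encodes a junctional scaffold protein that binds and restrains YAP, was high with siSfpq alone. Its probe (mm9, chromosome 9, 102635025 to 102635084) gave 9.89, 9.79 and 9.68 in the control and 9.89, 9.93 and 9.88 with let-7a. With siSfpq it gave 10.78, 9.85 and 10.59, and with let-7a + siSfpq 9.97, 9.90 and 9.76. The siSfpq samples of replicates 1-2 and 4 were the 2 highest of the 12, and that of replicate 3 lay within the range of the control. With all samples the rise with siSfpq was 0.62 (SE 0.19) on the log2 scale and fell just short of the threshold (limma adjusted p = 0.0536). It passed with the replicate number as a block (adjusted p = 0.0201) and without replicate 3 (0.89, adjusted p = 0.000373).

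Amotl2 was lower with let-7a + siSfpq than with siSfpq alone by −0.53 (SE 0.19), which did not pass with all samples (limma adjusted p = 0.1004), but did with the replicate block (adjusted p = 0.0404) and without replicate 3 (−0.81, adjusted p = 0.00067). Its difference from control was 0.12 with let-7a (adjusted p = 0.823) and 0.09 with both (adjusted p = 0.949). The interaction was −0.65 (SE 0.27), with values of −0.82, −0.09 and −1.03 in replicates 1-2, 3 and 4, so that in replicates 1-2 and 4 Amotl2 and Ctgf had interactions of opposite sign.

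Ankrd1, which encodes a cardiac ankyrin repeat protein, could not be followed. Its single probe was not well above background on any of the 16 arrays, with background-corrected intensities of 2.39 to 9.64, and no difference between conditions is given for it. The probes of the other 7 members were well above background on all 16 arrays, and none was saturated.

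Yap1, which encodes YAP itself, fell with let-7a. Its probe (mm9, chromosome 9, 7932025 to 7932084) gave 13.69, 13.50 and 13.85 in the control and 13.22, 13.29 and 13.22 with let-7a. With siSfpq it gave 13.70, 13.52 and 13.78, and with let-7a + siSfpq 13.52, 13.40 and 13.62. The 3 samples of let-7a lay below the 9 other samples, and those of siSfpq lay within the range of the control. The fall was −0.43 (SE 0.10) on the log2 scale, to 0.74 times control (limma adjusted p = 0.0297; 0.00345 with the replicate block), and −0.54 without replicate 3 (adjusted p = 0.00136). Without replicate 1-2 it was −0.42 (adjusted p = 0.519) and without replicate 4 it was −0.34 (adjusted p = 0.534).

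With siSfpq Yap1 differed from control by −0.01 (limma adjusted p = 0.950), and with let-7a + siSfpq by −0.17 (adjusted p = 0.640). Between let-7a + siSfpq and let-7a alone it was higher by 0.27 (SE 0.10), which did not pass with all samples (adjusted p = 0.218), but passed with the replicate block (adjusted p = 0.0416) and without replicate 3 (0.34, adjusted p = 0.0114). The interaction of Yap1 was 0.28 (SE 0.15), positive in all 3 replicates with 0.29, 0.10 and 0.46.

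Tead2, the TEAD factor of early embryonic cells, changed little. The log2 level was 14.74, 14.49 and 14.61 in the control and 14.78, 14.51 and 14.70 with let-7a. With siSfpq it was 14.50, 14.27 and 14.31, and with let-7a + siSfpq 14.67, 14.34 and 14.44. Within each replicate, siSfpq was the lowest condition and let-7a + siSfpq the next lowest. The difference for siSfpq was −0.25 (SE 0.11) and did not pass with all samples (limma adjusted p = 0.145), but did with the replicate block (adjusted p = 0.00518); between let-7a + siSfpq and let-7a alone it was −0.18 (adjusted p = 0.485; 0.0363 with the replicate block). Both Tead2 probes moved the same way with siSfpq, by −0.30 and −0.21, and for the latter, A_55_P2129271, the difference passed without replicate 3 (−0.24, limma adjusted p = 0.0137 over all probes).

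Tead1, which encodes another TEAD factor, gave, as the mean of its 3 probes, 9.66, 9.44 and 9.37 in the control and 9.66, 9.52 and 9.49 with let-7a. For siSfpq the levels were 9.88, 9.38 and 9.60, and for both 9.71, 9.38 and 9.49, so that all conditions overlapped. No difference from control passed the test, with values of 0.07 for let-7a (limma adjusted p = 0.862) and 0.13 for siSfpq (adjusted p = 0.595). The mean hides probes that moved in opposite directions with siSfpq. The brightest probe, A_51_P214423, went from 13.07, 13.02 and 13.03 in the control to 12.86, 12.99 and 12.63 with siSfpq, a difference of −0.21 (adjusted p = 0.156 over the 24537 probes; −0.30 and adjusted p = 0.0194 without replicate 3). The dimmer probe A_55_P2011390 went from 8.02, 7.76 and 7.66 to 8.85, 7.64 and 8.54, a difference of 0.53 (adjusted p = 0.213; 0.84 and adjusted p = 0.00516 without replicate 3). The probe A_55_P2159885 differed by 0.08 (adjusted p = 0.813). In this order the probes lie on chromosome 7 of mm9 at 120049844 to 120049903, 120042204 to 120042263 and 120043445 to 120043504.

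Lats2, the kinase that phosphorylates YAP, rose with siSfpq. Its level, the mean of 2 probes, was 7.20, 7.35 and 7.17 in the control and 7.34, 7.55 and 7.12 with let-7a. With siSfpq it was 7.99, 7.73 and 7.68, and with let-7a + siSfpq 7.67, 7.74 and 7.46. The 6 samples with siSfpq, alone or with let-7a, lay above the 3 control samples. With siSfpq alone the rise was 0.56 (SE 0.16) on the log2 scale (limma adjusted p = 0.0373; 0.0056 with the replicate block), and 0.64 without replicate 3 (adjusted p = 0.00754). It was 0.44 without replicate 1-2 (adjusted p = 0.540) and 0.59 without replicate 4 (adjusted p = 0.486), and was not called under several other settings given in the closing section.

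The probes of Lats2 differed in how far they moved. A_55_P2002351 (mm9, chromosome 14, 58341225 to 58341284) went from 5.42, 5.60 and 5.50 in the control to 6.60, 6.20 and 6.30 with siSfpq, a rise of 0.86 (SE 0.17, limma adjusted p = 0.0121 over all probes, of which 13.1% were called in this comparison). With let-7a it gave 5.65, 5.75 and 5.58 and with both 6.12, 6.02 and 6.06, a difference from control of 0.56 (adjusted p = 0.172; 0.63 and adjusted p = 0.0351 without replicate 3). A_52_P315345 (58308807 to 58308866 of the same chromosome) rose by 0.26 (SE 0.20), which did not pass the test (adjusted p = 0.421); its samples were 8.99, 9.10 and 8.84 in the control and 9.38, 9.26 and 9.06 with siSfpq. These probes are matched to different transcripts of the gene. With let-7a alone Lats2 differed from control by 0.09 (adjusted p = 0.820), and with both by 0.38 (adjusted p = 0.345). The interaction was −0.27 (SE 0.22).

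**Figure D2:**
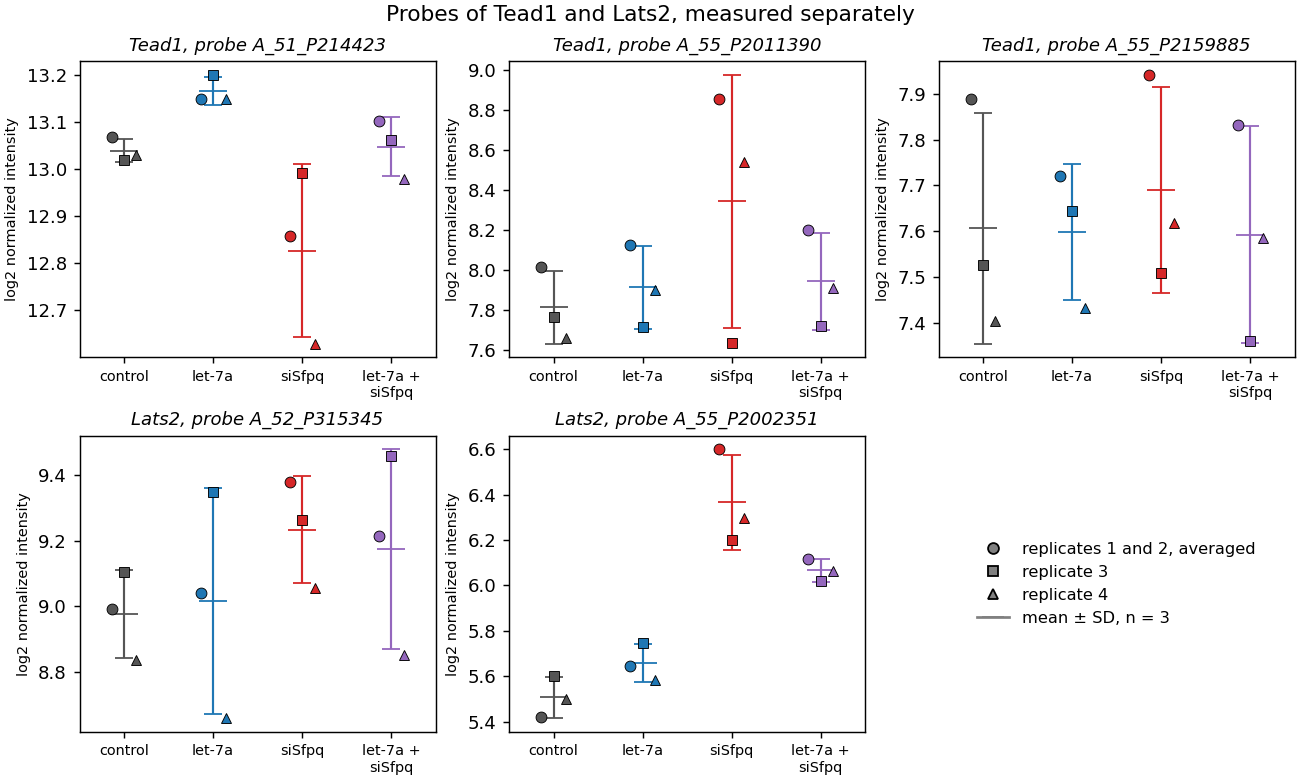
Log2 level (quantile normalized) of the 3 probes of Tead1 and the 2 probes of Lats2 in the 4 conditions, a panel each; symbols are samples, shaped by replicate, and bars give the mean ± SD. With siSfpq the brightest Tead1 probe lies lower than control by 0.21 and A_55_P2011390 higher by 0.53, and the Lats2 probe A_55_P2002351 rises by 0.86.

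Counted over the 6 tested members other than Ctgf, 1 was lower with let-7a (Yap1) and 1 was higher with siSfpq (Lats2). Among all 18338 genes, let-7a left 4.89% called higher and 2.01% called lower, and siSfpq 6.33% and 7.32%, so that 1 of 6 in a direction is not a result about the group. With let-7a + siSfpq, 0 of 6 were called by limma against control (1 at an unadjusted p below 0.05, Lats2), where 1.29% of all genes were higher and 0.229% lower. Also 0 of 6 were called against let-7a alone (1 at an unadjusted p below 0.05, Yap1; 0.96% of all genes higher and 2.16% lower) and 0 of 6 against siSfpq alone (1 at an unadjusted p below 0.05, Amotl2; 6.17% and 4.12%). The comparisons share samples, the 3 against control the same 3 control samples, and their values are not independent.

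Without replicate 3 or with the replicate number as a block, more members were called, and so were more of all genes. Without replicate 3, Cyr61 and Yap1 were lower with let-7a, where 29.7% of all genes were called in either direction. In those samples Cyr61, Amotl2 and Lats2 were higher with siSfpq, where 48.5% of all genes were called. Against control, let-7a + siSfpq called 17.7% of all genes and no member; against let-7a alone it called 26.2%, Yap1 included, and against siSfpq alone 46.4%, Cyr61 and Amotl2 included. With the block the shares of all genes called were 21.8%, 37.8%, 8.14%, 13.2% and 33.3% for let-7a, siSfpq and both against control, both against let-7a and both against siSfpq. These shares are the background against which the calls of single members stand.

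**Figure D3:**
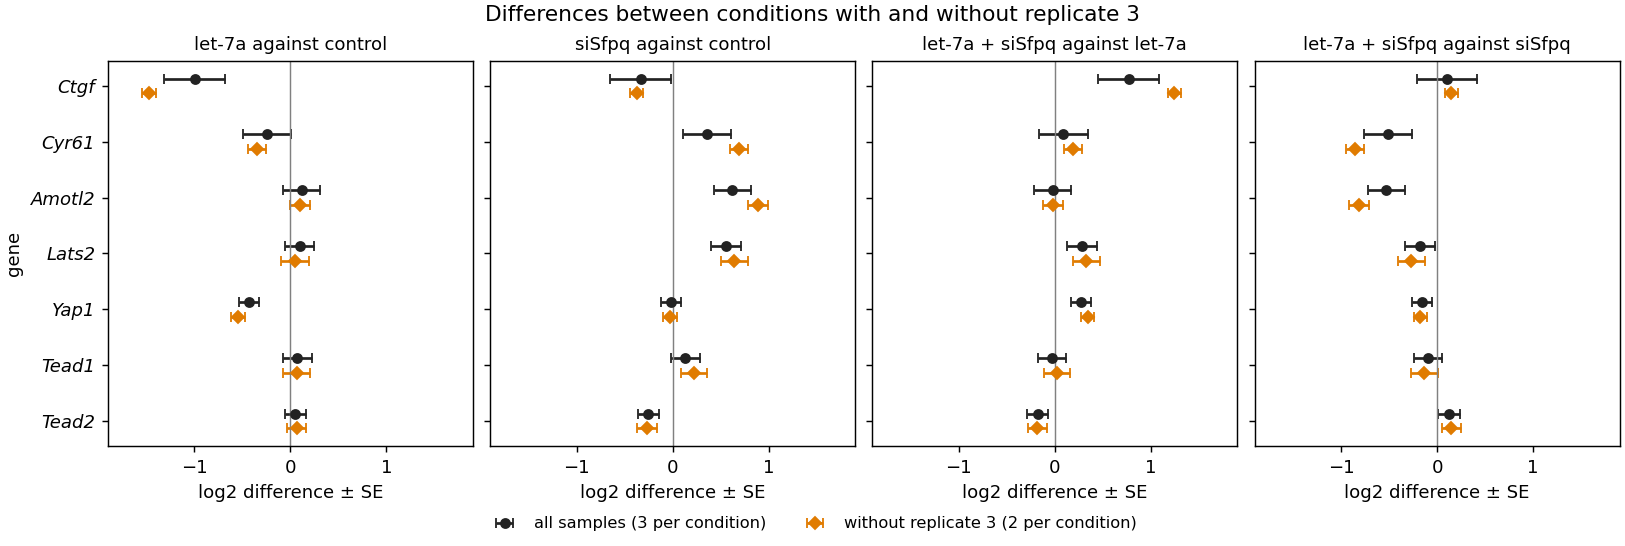
Log2 differences of the 7 tested members in 4 contrasts, with all samples and without replicate 3. The contrasts are let-7a against control, siSfpq against control, let-7a + siSfpq against let-7a, and let-7a + siSfpq against siSfpq. Bars give the standard error of the fit. Ctgf moves furthest with let-7a, from −0.99 with all samples to −1.47 without replicate 3. With siSfpq Amotl2 and Cyr61 lie at 0.62 and 0.35 with all samples, where neither passed (limma adjusted p = 0.0536 and 0.377). Without replicate 3 they lie at 0.89 and 0.69.

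The wider pathway was read from lists of genes, 70 of whose 80 genes were tested. Counts are from the fit without the replicate block; with the block the 70 genes gave 19 calls in place of 4 with let-7a, 33 in place of 14 with siSfpq, and 15 in place of 3 for both against let-7a, and without replicate 3 they gave 31, 47 and 31, beside the higher shares of all genes given above for these settings. Of the published YAP/TAZ target signature, 15 of 17 genes other than the members were tested, and they went both ways with siSfpq: 2 rose and 2 fell, with a median log2 difference of −0.04 against 0.0067 over all genes, of which 6.33% were called higher and 7.32% lower. Nt5e, which encodes the ectonucleotidase CD73, had levels of 5.23, 5.02 and 5.51 in the control and 8.73, 7.18 and 8.78 with siSfpq, a rise of 2.98 (limma adjusted p = 0.00515). F3, which encodes tissue factor, went from 7.90, 8.42 and 8.09 to 10.15, 8.83 and 10.15, a rise of 1.57 (adjusted p = 0.0146). For both genes all siSfpq samples lay above all control samples, with replicate 3 the lowest. Arhgef17 fell by 1.05 on the log2 scale (adjusted p = 0.0266) and Rbms3, an RNA-binding protein, by 1.12 (adjusted p = 0.00935).

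With let-7a, 1 of these 15 genes rose and none fell, beside 4.89% and 2.01% of all genes. It was Rbms3, with 7.62, 6.97 and 7.52 in the control and 8.81, 8.44 and 8.61 with let-7a, a rise of 1.25 (limma adjusted p = 0.00438). With let-7a + siSfpq it was at 6.70, 7.22 and 7.002, lower than with let-7a alone (−1.65, adjusted p = 0.00454), so that its samples with let-7a alone were the highest of the 12, unlike those of Ctgf. Nt5e was higher with let-7a + siSfpq than in the control as well (2.45, adjusted p = 0.0174), at 8.24, 6.91 and 7.94.

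Of the partners of YAP and TEAD, 5 of 7 were tested (Vgll1 and Vgll3 were too dim), and Tead4, the TEAD factor of the trophectoderm, moved more than Tead1 and Tead2. It had 7.64, 7.42 and 7.67 in the control and 6.56, 6.79 and 6.45 with let-7a. With siSfpq it had 9.98, 8.22 and 9.99, and with let-7a + siSfpq 7.72, 7.65 and 7.74. All samples of siSfpq lay above, and all of let-7a below, the samples of the control, and those of the combination overlapped the control. The rise with siSfpq was 1.82 (SE 0.37, limma adjusted p = 0.0133), the difference with let-7a did not pass (adjusted p = 0.155; −1.13 and adjusted p = 0.000117 without replicate 3), and between the combination and siSfpq alone the difference was −1.69 (adjusted p = 0.0203).

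Of the Hippo kinases and upstream regulators, 21 of 22 were tested (Frmd6 was too dim). Over all genes 6.33% were higher and 7.32% lower with siSfpq. In this list 2 rose with siSfpq, Nf2, which encodes merlin, an upstream activator of the cascade (1.09, limma adjusted p = 0.0456), and Amotl1, a relative of Amotl2 (0.64, adjusted p = 0.0392). The 3 that fell were the giant cadherins Fat4 (−0.94, adjusted p = 0.00977) and Dchs1 (−0.98, adjusted p = 0.0118), which bind each other, and the kinase Map4k4 (−0.26, adjusted p = 0.0327). Fat4 was at 7.17, 7.14 and 7.40 in the control and 6.42, 6.51 and 5.94 with siSfpq, and Dchs1 at 9.72, 9.39 and 9.62 and then 8.38, 8.87 and 8.53. Nf2 was at 9.40, 8.18 and 9.40 with siSfpq against 7.96, 8.005 and 7.76 in the control. With let-7a 0 of the 21 were called by limma (6 at an unadjusted p below 0.05), and between let-7a + siSfpq and let-7a alone 0 as well (4 at an unadjusted p below 0.05). With the replicate block 5 of the 21 were called with let-7a, 2 higher and 3 lower, and 4 for both against let-7a, 1 higher and 3 lower, where 21.8% and 13.2% of all genes were called, so that these counts are not a result about the list.

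Ctgf is also a target gene of TGF-beta signalling and of the actin-responsive factors SRF and MRTF, and these lists were read for the same reason. All 18 TGF-beta genes were tested, and the shares of all genes called lower stand at 2.01% with let-7a and 7.32% with siSfpq. With let-7a 2 fell, the coreceptor Tgfbr3 (−0.73, limma adjusted p = 0.0163) and the corepressor Tgif1 (−0.30, adjusted p = 0.0328), and with siSfpq 2 fell, Pmepa1, a feedback inhibitor (−1.15, adjusted p = 0.0356), and Ltbp1, which binds latent TGF-beta in the matrix (−0.52, adjusted p = 0.0414). Tgfbr3 was at 10.32, 10.68 and 10.35 in the control, 9.60, 9.98 and 9.59 with let-7a and 10.42, 10.47 and 10.44 with let-7a + siSfpq. It was the gene of this list that was higher with both than with let-7a alone (0.72, limma adjusted p = 0.0311), beside 0.96% of all genes. Its level with both lay within the range of the control.

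The difference of Pmepa1 with let-7a was −0.76 and did not pass the test (limma adjusted p = 0.192; −1.05 and adjusted p = 0.000433 without replicate 3). It was at 12.19, 12.02 and 12.10 in the control and 11.23, 11.84 and 10.95 with let-7a, whereas the siSfpq samples had 10.61, 11.84 and 10.41 and the samples with both 11.97, 11.90 and 11.92. Of the SRF-MRTF and actin genes, 13 of 14 were tested (Actg2 was too dim). Myl9, a myosin light chain of contractile cells, rose with let-7a (0.86, limma adjusted p = 0.00648), fell with siSfpq (−0.66, adjusted p = 0.0193) and was lower with both than with let-7a alone (−1.01, adjusted p = 0.00943). Mkl2, which encodes the coactivator MRTF-B, was higher with siSfpq by 0.91 (adjusted p = 0.0362), but 1 of its 3 probes was well above background on only 1 of 4 control arrays and 3 of 4 siSfpq arrays and entered the mean through let-7a + siSfpq. Over the 5 lists together, let-7a + siSfpq differed from control in 1 of the 70 genes (Nt5e) and from siSfpq alone in 9, among them Tead4, Amotl1, Fat4, Dchs1, Rbms3 and Map4k4. Over all genes the shares were 1.29% higher and 0.229% lower against control, and 6.17% and 4.12% against siSfpq alone, so that these counts are near the background. The remaining CCN family genes, Nov, Wisp1, Wisp2 and Wisp3, were on the array and too dim to be tested.

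**Figure D4:**
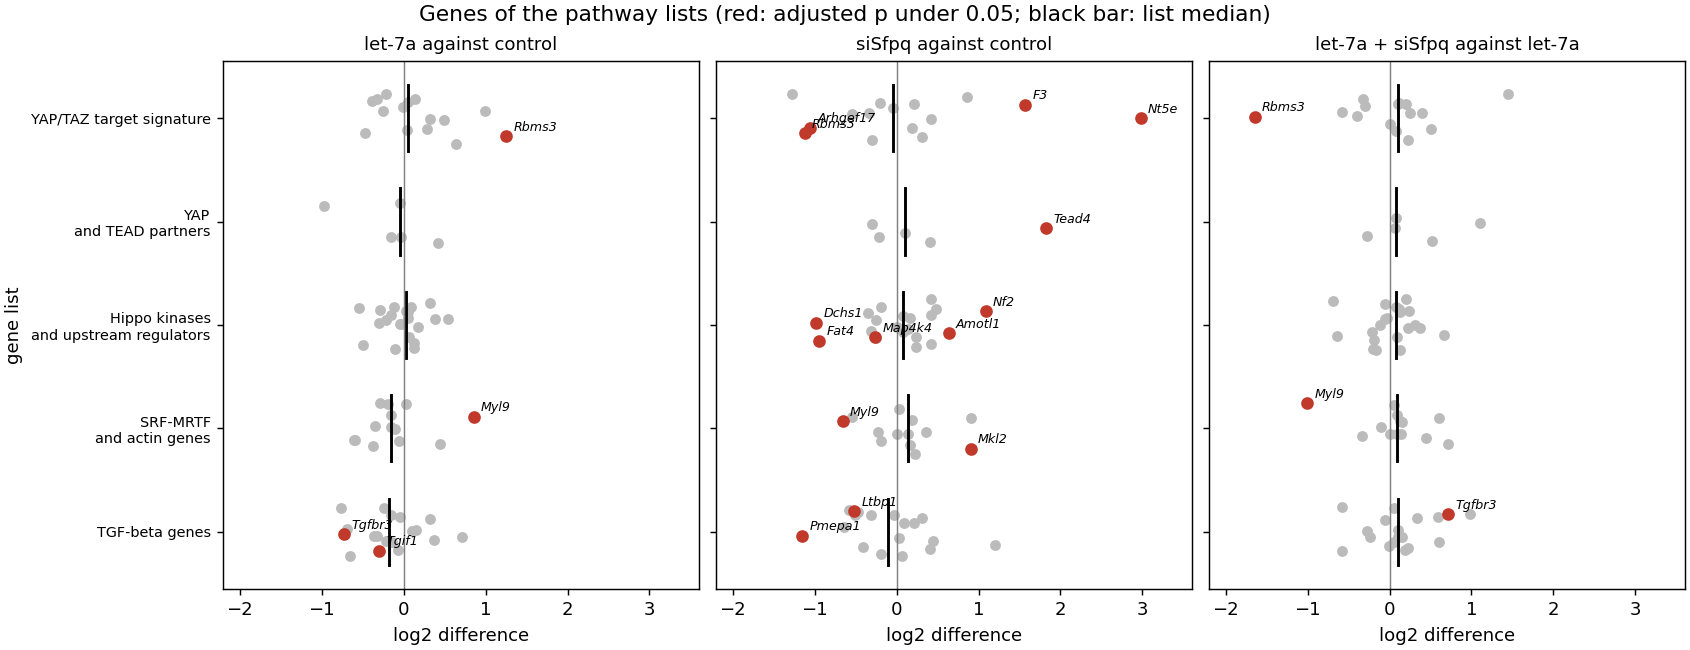
Log2 difference of each tested gene in the 5 lists (YAP/TAZ targets, YAP and TEAD partners, Hippo regulators, TGF-beta, SRF-MRTF) in 3 contrasts. Each point is a gene, red where called, and the black bar is the median of the list. The points lie on both sides of 0 in each list of 13 or more genes, and Nt5e at 2.98 is the furthest from 0 with siSfpq.

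Among the genes whose levels went most like those of Ctgf over the 12 samples (of 16434 genes well above background on all arrays) were Abcc4, a transporter (Pearson r = 0.94), Plk5 (0.91), Gdf3, a TGF-beta family ligand of pluripotent cells (0.91), and Odc1, an enzyme of polyamine synthesis (0.90). Over the 8 samples without replicate 3, r was 0.97, 0.97, 0.98 and 0.90. Gdf3 was at 12.91, 13.09 and 12.98 in the control and 12.25, 12.85 and 12.24 with let-7a. With siSfpq it was at 12.63, 13.12 and 12.63, and with both at 12.75, 12.95 and 12.80. Like Ctgf, it was lowest with let-7a in replicates 1-2 and 4, and below its control with siSfpq in these replicates.

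Among the genes most like Cyr61 were Armcx6 (0.96), Arl4a, a small GTPase (0.96), a transcript the array names NAP000533-003 (0.95), and Inip (0.93). Among the members, r over the 12 samples was 0.516 between Ctgf and Cyr61, 0.691 between Cyr61 and Amotl2 and −0.061 between Ctgf and Amotl2. These correlations describe 4 conditions on the same 12 samples, share the normalization, and, for Ctgf, span 2 samples that lie far below the others.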

How the data were processed

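RNA of 16 samples of P19 cells, prepared with miRNeasy columns per the labels (the study's methods name an RNeasy kit), was hybridised in 1 colour (Cy3) to Agilent mouse arrays, on 2 slides of 8 arrays with all 4 conditions on each. The authors deposited the scanner output of Agilent Feature Extraction (version 10.7.3.1), whose processed intensity values are background-corrected, and a table of log2 values that follows the log2 of the median spot intensity. The study's methods name 3 replicates per condition; 4 arrays per condition were used here. From the deposited intensity, log2 values were taken, outlier spots left out and arrays quantile normalized. Of 59305 spots per array, 33733 to 38464 were well above background, and the number of arrays limits the precision. Probes had to be flagged well above background by the scanner software on the 4 arrays of 1 condition or more, and the probes of a gene were averaged. Probes were named through RefSeq identifiers (28026 probes) or, failing that, by the file's gene name; 16194 probes named only by a genome region and 2711 named only by their own identifier were left out.

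After averaging of arrays 1 and 2 within a condition, the 12 samples were fitted in 1 model with limma (3.58.1, R 4.3.3; eBayes with a trend), with Benjamini-Hochberg adjustment over all 18338 genes and calls at an adjusted p under 0.05, two-sided. Tests on simulated data preceded the fits. The replicate numbers pair the samples: deviations from the condition means correlated between 0.284 and 0.708 over the 18 pairs of samples with the same number in different conditions, and between −0.625 and 0.205 over the 36 pairs with different numbers, a check made on these data. Replicate 1-2 was on slide 1 and replicates 3 and 4 on slide 2, so the difference in replicate 1-2 is the value within slide 1. The members, lists, tests and alternatives were chosen with earlier results of these data known. The genes named were the 8 members, Sfpq, per list up to 3 genes with the largest rise and fall among those called with let-7a, with siSfpq or between let-7a + siSfpq and let-7a, and the 5 genes most like Ctgf and Cyr61, of which 1 for each is not reported here. Gdf3 was singled out among the latter, and Pmepa1 and Tgfbr3 among the former, after their values were seen. No set test was run, and lists are described by counts and medians. Positions of probes are in mm9 as in the files, and those of RefSeq sequences in GRCm38.p6. Alternatives covered scaling, background, filters, blocks, arrays left out, the deposited log2 values, the choice of probe and the samples fitted; figures were drawn with matplotlib 3.10.9.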

Additional observations from a re-analysis of the deposited data

How the results depend on the processing

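The interaction of Ctgf, the value that chose it, ranged from 0.77 to 1.62 over the alternatives, which is no support for it. The called members kept their direction under the alternatives run. The call of Yap1 with let-7a was lost without the mean-variance trend (0 members called). That of Lats2 with siSfpq was lost with normexp background correction, with the authors' deposited log2 values, with the brightest probe of a gene and with only the conditions compared fitted (0 members called in each), while without the filter on dim probes its adjusted p was 0.0536. With siSfpq, 75th percentile scaling called 2 members (Amotl2 and Lats2), as did leaving out identifier-named probes, an alternative chosen after seeing the data, and the slide block, the replicate block and all 16 arrays as separate samples called 3 (Tead2 in addition). The replicate block called 2 members for both against let-7a (Tead2 and Yap1) and 1 for both against siSfpq (Amotl2), and changed no other call of a member. All 16 arrays called 1 for both against control (Lats2), 1 for both against let-7a (Yap1) and 2 for both against siSfpq (Amotl2 and Cyr61), and without the dim filter 1 was called there (Ankrd1, below background). Leaving out 1 replicate at a time gave 0 to 2 members with let-7a, 0 to 3 with siSfpq, 0 to 1 for both against let-7a and 0 to 2 for both against siSfpq.

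Of the 70 pathway genes, 4 were called with let-7a, 14 with siSfpq, 1 for both against control, 3 for both against let-7a and 9 for both against siSfpq. In this order the replicate block called 19, 33, 8, 15 and 27, and all 16 arrays 23, 36, 5, 18 and 27. Leaving out a replicate gave 0 to 31, 0 to 47, 0 to 13, 0 to 31 and 0 to 44. With only the conditions compared, 7 were called with let-7a, 0 with siSfpq, 2 for both against control and 0 for both against siSfpq. Without the dim filter 7 were called with siSfpq and 4 for both against siSfpq, and with unnamed probes kept, also chosen after seeing the data, 4 for the latter. For both against let-7a, normexp called 6 and the slide block, the deposited values and identifier-named probes left out 5 each; for both against control normexp called 0. Over all genes, the 1160 higher and 1343 lower with siSfpq became 3383 and 3547 with the replicate block, 4405 and 4680 without replicate 3, and 0 and 0 with only the conditions compared; the 896 and 369 with let-7a became 2121 and 1872, 2906 and 2649, and 1140 and 508.

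Differences that changed sign were none of them called. For Amotl2 in both against let-7a (−0.02) the value was 0.00069 with all 16 arrays and −0.0718 to 0.0224 with 1 replicate left out. For Tead1, leaving out 1 replicate gave −0.0015 to 0.0896 in both against control and −0.0706 to 0.0228 in both against let-7a, and the brightest probe gave −0.213 with siSfpq and 0.221 in both against siSfpq. For Tead2, 75th percentile scaling gave −0.0570 with let-7a and −0.0206 in both against siSfpq. For Yap1 with siSfpq, 75th percentile scaling gave 0.128 and leaving out 1 replicate −0.0281 to 0.0111. With the brightest probe the interaction was −0.10 for Lats2 and 0.09 for Tead1. The cause of these changes was not tested. Dim probes, such as that of Ankrd1, limit what can be said of a gene.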
